A study of Equus asinus with 2 samples.

Results

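The cells described here are interstitial stroma barcodes of the fetal donkey gonad that held both decorin (DCN) and musculin (MSC) transcripts. A cell barcode was a member if it had at least 2000 UMIs (unique molecular identifiers, each counting 1 captured RNA molecule), DCN at 5 or more per 10000 UMIs and at least 1 MSC UMI. It also had to hold no UMI of TOP2A or MKI67, both made by dividing cells, fewer than 10 per 10000 UMIs of the smooth muscle actin ACTA2 and fewer than 2 per 10000 of the matrix protein periostin, POSTN. The rule found 1463 members among 23531 barcodes. Of these, 1393 of 14593 came from the library of ovarian tissue at 8 weeks of gestation and 70 of 8938 from the library of gonadal with mesonephric tissue at 4 weeks.

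The study profiled early gonad formation by single-cell RNA sequencing in the donkey (Equus asinus), with 1 library per stage. Tissue came from freshly slaughtered fetuses, was digested with collagenase and DNase and was strained. The labels give the cell type as germ cells for both libraries, and no sorting is described. The number of fetuses and their genetic sex were not given. Stage, dissected tissue and library changed together and cannot be told apart, so no test between the stages was possible. Every interval below is a 95% interval that covers counting error only, and none holds any spread between animals.

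Stroma fills the space between the cords or follicles of a gonad and lays down its collagen scaffold, and in mice part of it is the pool from which hormone-making interstitial cells arise. Decorin is a small leucine-rich proteoglycan that binds collagen fibrils and growth factors of the TGF-beta family. Musculin is a transcription factor of the basic helix-loop-helix class, best known as a repressor in muscle and lymphocytes. The gene symbol MSC stands here for musculin and not for mesenchymal stem cells. The other genes of the label are lumican (LUM), a collagen-binding relative of decorin, ALKAL2, a ligand of the receptor tyrosine kinase ALK, and NR0B1 (DAX1), a nuclear receptor that represses steroidogenic genes.

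The 8-week library held 155128130 UMIs and the 4-week library 122341903. Over all barcodes of at least 2000 UMIs, the library labelled ovarian held AMH at 514 CPM (UMIs per 1000000), INSL3 at 184 CPM and FOXL2 at 1.59 CPM. In the 4-week library these genes stood at 421, 4.91 and 1.03 CPM. AMH and INSL3 are hormones of the fetal testis in other mammals and FOXL2 is a transcription factor of ovarian granulosa cells, so these levels go against the ovarian label, and the library is named here by its stage. The libraries shared 38 barcode sequences, none of them belonging to a member in both.

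DCN reached its threshold in 65.5% of the 11076 barcodes with at least 2000 UMIs at 8 weeks and in 21.9% of 7742 at 4 weeks. Members made up 19.2% (18.3 to 20.1) of the 7251 DCN barcodes at 8 weeks and 4.13% (3.23 to 5.19) of 1695 at 4 weeks. Of the DCN barcodes that met every condition but MSC, members were 42.6% of 3269 at 8 weeks and 8.33% of 840 at 4 weeks. The conditions on DCN, ACTA2 and POSTN cut through a continuous range. The nearest members and the nearest excluded barcodes had DCN at 5.001 and 4.88 per 10000 at 8 weeks and at 5.70 and 4.57 at 4 weeks. For ACTA2 they were at 9.92 and 10.1 at 8 weeks and at 9.79 and 11.7 at 4 weeks, and for POSTN at 1.95 and 2.1 at 8 weeks and at 1.57 and 2.46 at 4 weeks.

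MSC itself was found with few UMIs per barcode. Exactly 1 MSC UMI was held by 48.7% of the members at 8 weeks and by 90% at 4 weeks, and 3 or more by 25.1% and 2.86%. Members had a median of 7384 UMIs per barcode at 8 weeks and 8389 at 4 weeks. The DCN barcodes that met every other condition but had no MSC UMI, called MSC-negative below, had 5106.5 and 7057. The members were the deeper group in both libraries, so for some genes levels at equal depth are given beside the direct comparison.

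At equal depth MSC was found in a larger share of DCN barcodes at 8 weeks than at 4 weeks. After each barcode was thinned to 2000 UMIs, an MSC UMI was found in 17.6% (16.7 to 18.5) of all DCN barcodes at 8 weeks and in 2.01% (1.39 to 2.79) at 4 weeks. Endothelial barcodes, used for comparison, were those below the DCN threshold with at least 3 UMIs of PECAM1, CDH5, TIE1 and ERG together. They gave 3 of 428 (0.701%) at 8 weeks and 0 of 1534 at 4 weeks, which allows a share of up to 0.196%. Without thinning these shares were 50.8% and 9.85% in DCN barcodes and 11.7% and 0.261% in endothelial barcodes, whose median depths were 9054 and 9931 UMIs, against 7693 and 8367 in DCN barcodes. At equal depth the share in DCN barcodes stood above that of the endothelial barcodes at both stages.

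MSC was also higher where DCN was higher. At 8 weeks MSC stood at 7.23 CPM in barcodes without DCN, 10.9 CPM below the threshold, 53.0 CPM at 5 to 10, 91.6 CPM at 10 to 20 and 124 CPM at 20 or more per 10000. At 4 weeks the same steps gave 0.145, 0.847, 6.39, 12.6 and 12.8 CPM. MSC was higher at each step at 8 weeks, and at 4 weeks the top pair of steps did not differ beyond counting error. MSC was also found in cycling DCN barcodes. After thinning to 2000 UMIs, a TOP2A or MKI67 UMI was held by 28.4% (25.9 to 31.0) of the DCN barcodes with an MSC UMI and by 25.2% (24.1 to 26.4) of those without one at 8 weeks. The same shares at 4 weeks were 10 of 34 (29.4%) and 25.5%. The shares with and without MSC thus lay close together at equal depth. Without thinning they were 57.4% and 34.4% at 8 weeks and 52.1% and 41.9% at 4 weeks, and all barcodes in which such a UMI was found lie outside the members by rule.

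A further measure used no UMI for both choosing and measuring. The UMIs of each barcode were divided at random into equal sets, the rule was applied to one set and levels were read in the other. At 8 weeks, 1107 barcodes chosen in this way had MSC at 148 CPM in the unused UMIs. They were set against 2725 barcodes that met every other condition but had no MSC UMI in the set used for choosing, at 76.6 CPM. The ratio was 1.93 (1.75 to 2.12). At 4 weeks, 33 chosen barcodes had 4 unused MSC UMIs, or 23.9 CPM, against 11.4 CPM, and the ratio of 2.1 (0.548 to 5.77) was not distinguishable from 1. The barcodes set against the chosen ones could hold MSC in the other set, so they are not the MSC-negative group defined above. Later ratios in unused UMIs use this mixed group unless stated.

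The label genes stood high in the members and low in barcodes below the DCN threshold. LUM stood at 171 CPM in members, 126 CPM in MSC-negative barcodes, 137 CPM in all other DCN barcodes and 10.7 CPM below the threshold at 8 weeks. At 4 weeks these groups had 83.5, 74.7, 75.9 and 2.12 CPM. Members were 1.25-fold (1.20 to 1.31) above the other DCN barcodes at 8 weeks, while at 4 weeks the ratio of 1.1 (0.825 to 1.44) lay within counting error. At equal depth LUM stood at 206, 170 and 145 CPM in 8-week barcodes with 2 or more, 1 and 0 MSC UMIs after thinning. At 4 weeks it stood at 50.3 CPM (20.2 to 104) from 7 UMIs in the 18 barcodes with 1, against 76.0 CPM in those with 0, which lies within that interval.

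ALKAL2 stood at 79.0 CPM in members, 53.0 CPM in MSC-negative and 52.8 CPM in all other DCN barcodes, against 3.49 CPM below the threshold, at 8 weeks. At 4 weeks ALKAL2 stood at 28.8, 22.1, 17 and 1.56 CPM. It was the label gene with the highest ratio of members over other DCN barcodes, 1.5 (1.40 to 1.60) at 8 weeks and 1.70 (1.01 to 2.70) at 4 weeks. NR0B1 stood at 574 CPM in members, 444 and 454 CPM in MSC-negative and all other DCN barcodes and 48.8 CPM below the threshold at 8 weeks. At 4 weeks it stood at 281, 248, 221 and 12.2 CPM, and members were 1.27-fold above other DCN barcodes at both stages (1.24 to 1.30 and 1.09 to 1.47). LUM, ALKAL2 and NR0B1 each had a ratio above 1 and below 2 in both libraries, that of LUM at 4 weeks within counting error. In unused UMIs the 8-week ratios over other DCN barcodes were 1.28 for LUM, 1.53 for ALKAL2 and 1.23 for NR0B1. At 4 weeks LUM had 0.466 (0.171 to 1.02) from 6 UMIs and ALKAL2 0.659 (0.0791 to 2.42) from 2, both within counting error. NR0B1 had 1.44 (1.07 to 1.89).

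**Figure D1:**
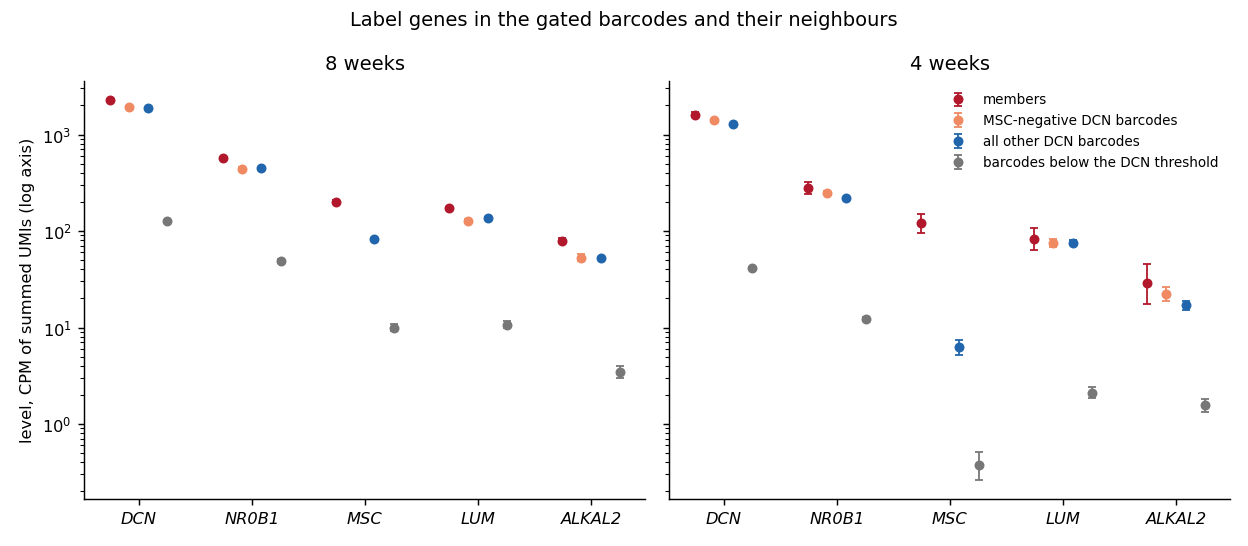
Levels of the label genes in CPM of summed UMIs (log axis) at 8 and 4 weeks, in members, MSC-negative DCN barcodes, all other DCN barcodes and barcodes below the DCN threshold, with 95% counting intervals as bars. Apart from MSC, which is 0 by rule in MSC-negative barcodes and not drawn there, the DCN groups lie close together (NR0B1 at 574, 444 and 454 CPM at 8 weeks) and far above the barcodes below the threshold (48.8 CPM).

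Within the members the label genes were found in part of the barcodes only. Among members thinned to 2000 UMIs, NR0B1 was found in 66.7% at 8 weeks and 34.3% at 4 weeks, LUM in 28.0% and 18.6% and ALKAL2 in 14.2% and 4.29%. Endothelial barcodes held NR0B1 in 7.01% and 1.04% at the same depth. At 8 weeks a LUM UMI was found in 28.0% of the members with NR0B1 and in 28.0% of those without it, and at 4 weeks in 2 of 24 (8.33%) and 11 of 46 (23.9%). LUM and NR0B1 were thus not found together more often than apart at this depth. None of the 3 genes was found in 21.0% of the 8-week and 48.6% of the 4-week members, and all of them in 2.94% and in 0 of 70, which allows up to 4.29%. Without thinning NR0B1 was found in 94.1% and 80% of the members.

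Genes known from stroma stood high in members and in other DCN barcodes alike. Of 10589 genes measured, 662 (6.25%) were at least 2-fold higher in DCN barcodes than below the DCN threshold in both libraries. At 8 weeks COL1A1 stood at 1322 CPM in members and 228 CPM below the DCN threshold, and the PDGF receptor PDGFRA at 272 and 33.1 CPM. At 4 weeks COL1A1 stood at 1241 and 94.9 CPM, and PDGFRA at 299 and 12.6 CPM. The other DCN barcodes were close to the members in both, with COL1A1 at 1411 and 1330 CPM and PDGFRA at 262 and 270 CPM. The summed level of the 8 stroma markers other than DCN was 5206 CPM in members, 5339 CPM in other DCN barcodes and 864 CPM below the threshold at 8 weeks. The 4-week sums were 4940, 5152 and 478 CPM. All 8 were at 10 CPM or more in members of both libraries, and members stood slightly below the other DCN barcodes in their sum.

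Most marker sums of other cell types were lower in members than below the DCN threshold, and none was at 0. At 8 weeks the summed level of 10 Sertoli markers was 253 CPM in members, 286 CPM in other DCN barcodes and 2165 CPM below the threshold. For 7 steroidogenic markers it was 547, 560 and 3844 CPM, and for 12 macrophage markers 170, 125 and 1180 CPM. At 4 weeks these sums were 129, 123 and 897 CPM, then 175, 282 and 1303 CPM, and 36.4, 28.0 and 174 CPM. Sertoli, steroidogenic and macrophage sums were thus lower in members than below the DCN threshold in both libraries. Germ cell markers summed to 45.5, 70.3 and 623 CPM at 8 weeks and to 18.2, 95.3 and 328 CPM at 4 weeks, where NANOG, DAZL, DDX4, MAEL, DPPA3 and DND1 had no UMI in members. Endothelial markers summed to 104, 116 and 561 CPM at 8 weeks and to 140, 208 and 1315 CPM at 4 weeks. Nephron markers summed to 66.6, 68.3 and 107 CPM at 8 weeks and to 85.0, 135 and 1004 CPM at 4 weeks, with 3 of 13 at 0 in members of each library. Pericyte markers stood higher in members than below the threshold at 4 weeks, with sums of 203, 248 and 236 CPM at 8 weeks and 181, 195 and 126 CPM at 4 weeks. Markers of neural crest or glia summed to 55.5, 49.8 and 88.1 CPM at 8 weeks and to 68.3, 101 and 55.8 CPM at 4 weeks. The part of free RNA in these levels was not tested.

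Apart from the genes of the rule, no gene stood at least 2-fold higher in members than in all other DCN barcodes in both libraries. The G2 and M phase genes, which the rule itself removes, stood lower. MSC and the other genes of the rule were left out of the counts, since the rule sets their levels. Of 9895 genes measured at 10 CPM or more, 0 (0%) were at least 2-fold higher in members in both libraries and 223 (2.25%) at least 2-fold lower, of which 39 were on the S phase or G2 and M phase lists. In single libraries 0 (0%) were higher and 251 (2.54%) lower at 8 weeks, and 79 (0.798%) higher and 587 (5.93%) lower at 4 weeks. The list of G2 and M phase genes had all 29 of its measured members at least 2-fold lower in both, with a median log2 ratio of −3.04 at 8 weeks and −3.22 at 4 weeks, against −0.03 and −0.02 for all genes. The centromere protein CENPF stood at 13.5 CPM in members and 291 CPM in others at 8 weeks, and at 16.7 and 385 CPM at 4 weeks. Of 26 measured S phase genes, 10 were at least 2-fold lower in both, among them the thymidylate synthase TYMS at 75.2 and 218 CPM at 8 weeks and 44.0 and 122 CPM at 4 weeks. These values describe the rule and are no result about the members.

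Outside the cell cycle and the genes of the rule, no gene list had a gene past 2-fold against the other DCN barcodes in both libraries. The small leucine-rich proteoglycans had median log2 ratios of 0.22 and 0.15 over 5 genes, and collagens of −0.11 and −0.13 over 23. Genes of steroidogenesis had −0.09 and −0.37 over 14, and contractile genes −0.13 and 0.19 over 15. The shifts were small and those of the contractile genes had opposite signs in the libraries.

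**Figure D2:**
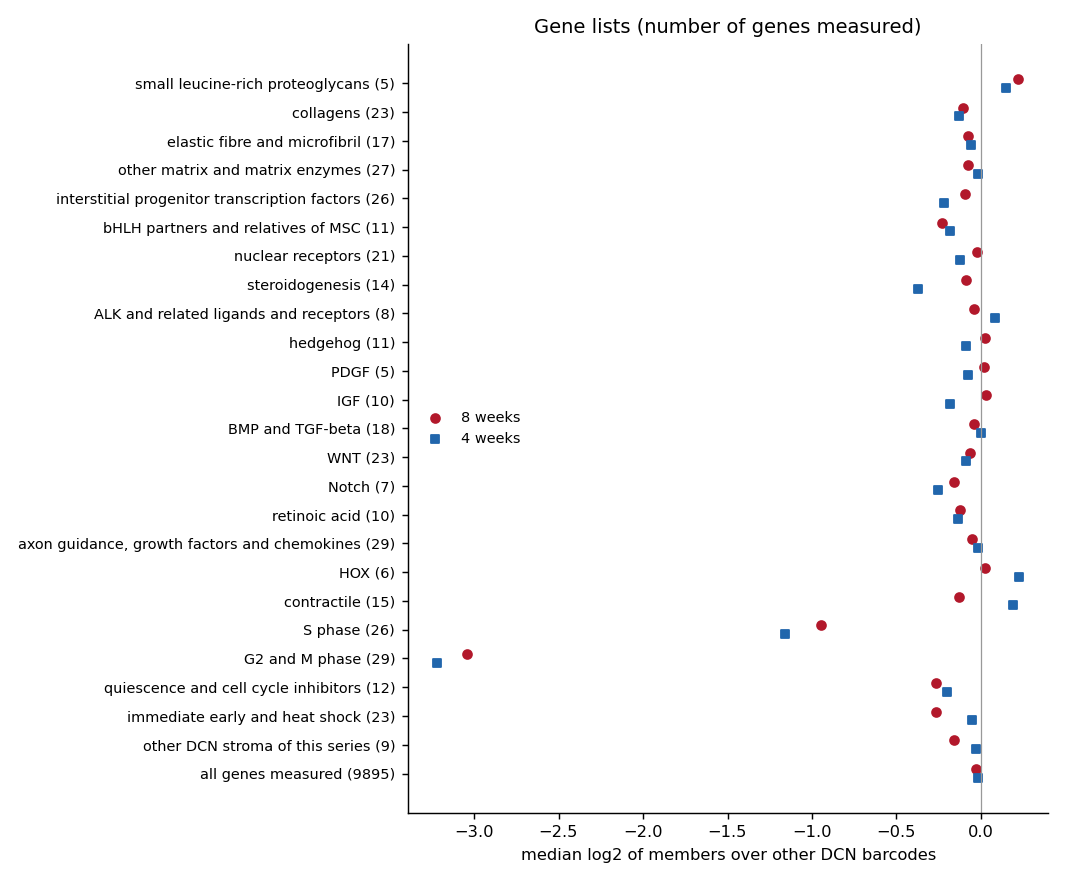
Median log2 ratio of members over other DCN barcodes for each gene list with at least 5 measured genes, at 8 weeks (circles) and 4 weeks (squares), with the number of genes measured in brackets. The lists of S phase (−0.94 and −1.16) and of G2 and M phase (−3.04 and −3.22) lie far to the left, as the rule sets them, and the other lists lie near 0.

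The genes ranked highest in members over other DCN barcodes were higher by modest ratios in both libraries. The creatine kinase CKB stood at 460 CPM in members and 316 CPM in others at 8 weeks, and at 294 and 184 CPM at 4 weeks, ratios of 1.46 (1.42 to 1.5) and 1.60 (1.37 to 1.85). NRG1, a growth factor for ERBB receptors, stood at 395 and 295 CPM at 8 weeks and at 311 and 160 CPM at 4 weeks, ratios of 1.34 (1.30 to 1.38) and 1.94 (1.68 to 2.24). METRN, a secreted neurotrophic factor, stood at 520 and 396 CPM at 8 weeks and at 458 and 281 CPM at 4 weeks. TMEM176B (1.44 and 1.94), PLD5, an inactive member of the phospholipase D family (1.39 and 2.30), TMEM119 (1.34 and 1.57) and the imprinted gene MEST (1.35 and 1.31) followed. Since the other DCN barcodes include the cycling ones, the share of barcodes without TOP2A and MKI67 differs with these ratios, and its part in them was not tested.

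The MSC-negative barcodes meet every other condition of the rule, so only the MSC condition separates them from members, and with it a lower depth per barcode. This comparison was chosen after the data had been seen. Of 9739 genes measured, those of the rule left out, 1 (0.0103%) was at least 2-fold higher in members in both libraries and 72 (0.739%) at least 2-fold lower. In single libraries 1 (0.0103%) was higher and 122 (1.25%) lower at 8 weeks, and 82 (0.842%) higher and 321 (3.3%) lower at 4 weeks. Some of the 72 genes rested on very few UMIs in 4-week members. GRM7 and METTL24 had 0 CPM there, and others, such as PODXL, ERG and TOX, had 1.52 CPM, the level of 1 UMI. Cell cycle genes were closer here, with G2 and M phase medians of −0.29 and 0.11 and S phase medians of 0.05 and −0.11. Of the 223 genes lower than in other DCN barcodes, 8 were also among these 72, which is 3.59% of the 223 and 11.1% of the 72. The comparisons share the members. Of the 72 genes, RXFP2, PENK, SOX6 and COL12A1 were also measured at equal depth. For the others named, only the direct comparison is given, and the part of depth in it was not tested.

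Apart from MSC, on which the groups were divided, the single gene past 2-fold on the higher side was EPYC, epiphycan. It is a small leucine-rich proteoglycan first known from growth cartilage and a relative of decorin. It stood at 80.0 CPM in members and 37.2 CPM in MSC-negative barcodes at 8 weeks, a ratio of 2.15 (1.92 to 2.41). At 4 weeks it stood at 307 and 118 CPM, a ratio of 2.59 (2.21 to 3.03). Against all other DCN barcodes, which include cycling ones, the 8-week ratio was only 1.17 (1.09 to 1.24), with the others at 68.7 CPM. At equal depth the direction held, with 86.3, 84.5 and 55.3 CPM in 8-week barcodes with 2 or more, 1 and 0 thinned MSC UMIs, and with 331 and 132 CPM in 4-week barcodes with 1 and 0. In unused UMIs the ratios were 1.59 (1.40 to 1.81) and 1.98 (1.41 to 2.72). Over all other DCN barcodes the unused UMIs gave 1.08 (0.986 to 1.19) at 8 weeks, within counting error, and 1.99 (1.43 to 2.71) at 4 weeks. EPYC thus stayed higher with MSC at equal depth, by less than 2-fold at 8 weeks and by more at 4 weeks. With the rule itself applied after thinning, the smaller log2 ratio of the libraries was 0.44 in place of 1.1.

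The share of barcodes showed the same order for EPYC. Thinned to 2000 UMIs, an EPYC UMI was found in 11.1% of members and 5.33% of MSC-negative barcodes at 8 weeks, and in 44.3% and 14.8% at 4 weeks. Endothelial barcodes held it in 1.17% at 8 weeks and 1.04% at 4 weeks. Without thinning the shares in members and MSC-negative barcodes were 26.8% and 11.5% at 8 weeks and 62.9% and 27.1% at 4 weeks.

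Other genes ranked higher than in MSC-negative barcodes stayed below 2-fold in at least 1 library. PLD5 stood at 108 CPM in members and 66.0 CPM in MSC-negative barcodes at 8 weeks and at 118 and 60.2 CPM at 4 weeks, ratios of 1.64 (1.5 to 1.79) and 1.97 (1.52 to 2.51). FOXP2, a forkhead transcription factor, stood at 93.5 and 59.5 CPM at 8 weeks and at 199 and 116 CPM at 4 weeks, ratios of 1.57 (1.43 to 1.72) and 1.71 (1.41 to 2.06). CYTL1, a small secreted protein, stood at 132 and 85.6 CPM and at 115 and 63.6 CPM. At equal depth PLD5 stood at 138, 116 and 82.0 CPM and FOXP2 at 128, 101 and 71.9 CPM in 8-week barcodes with 2 or more, 1 and 0 MSC UMIs after thinning. Both were thus higher with MSC than without it at 8 weeks, while the step between 1 and 2 or more lay within overlapping intervals for both. In unused UMIs the 4-week ratio was 1.58 (1.06 to 2.28) for FOXP2. It was 1.18 (0.603 to 2.11) for PLD5 and 1.45 (0.816 to 2.4) for CYTL1, both within counting error. With the rule applied after thinning the PLD5 ratio lay above 1 in one library and below 1 in the other.

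The hedgehog pathway gave small differences. HHIP, which binds and restrains hedgehog ligands, stood at 59.3 CPM in members and 39.2 CPM in MSC-negative barcodes at 8 weeks and at 60.7 and 36.4 CPM at 4 weeks, ratios of 1.51 (1.35 to 1.70) and 1.67 (1.16 to 2.34). PTCH1, the hedgehog receptor and a target of its own pathway, stood at 219 and 177 CPM at 8 weeks and at 215 and 139 CPM at 4 weeks. HHIP and PTCH1 were thus both higher in members at both stages in the direct comparison. In unused UMIs the 4-week ratio of HHIP was 1.18 (0.499 to 2.38), within counting error. At equal depth 8-week barcodes with 2 or more, 1 and 0 thinned MSC UMIs had HHIP at 60.7, 69.1 and 46.3 CPM. PTCH1 stood at 245, 227 and 193 CPM there. In 4-week barcodes with 1 and 0, HHIP stood at 35.9 CPM (11.7 to 83.8) from 5 UMIs and 38.7 CPM. PTCH1 had 187 CPM (122 to 274) and 145 CPM, so both 4-week differences lay within counting error at equal depth. The hedgehog list as a whole had medians of 0.01 and −0.07 over 12 genes with none past 2-fold, and the transcription factors GLI2 and GLI3 stood at 81.9 and 124 CPM in 8-week members, against 81.0 and 157 CPM in MSC-negative barcodes.

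Among the genes lower in members was a hormone receptor, RXFP2, and the opioid precursor PENK. RXFP2, the receptor of the hormone INSL3, stood at 30.8 CPM in members and 100 CPM in MSC-negative barcodes at 8 weeks, 3.26-fold lower (2.92 to 3.65). At 4 weeks it stood at 37.9 and 102 CPM, 2.68-fold lower (1.80 to 4.17). PENK, from which the enkephalins are cut, stood at 18.1 and 59.3 CPM at 8 weeks, and at 4 weeks at 3.04 CPM from 2 UMIs, against 17.8 CPM, a ratio of 0.171 (0.0205 to 0.632). The list of other DCN stroma markers, to which RXFP2 and PENK belong, had 2 of 9 measured genes past 2-fold, against 0.739% of all genes. The list was chosen on these libraries, so its count is not independent evidence. An RXFP2 or PENK UMI was found after thinning in 5.89% of members and 17.7% of MSC-negative barcodes at 8 weeks and in 7.14% and 18.1% at 4 weeks.

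At equal depth RXFP2 was also lower where MSC was found. It stood at 11.7, 25.8 and 71.1 CPM in 8-week barcodes with 2 or more, 1 and 0 MSC UMIs after thinning, and at 43.1 CPM (15.8 to 93.8) from 6 UMIs and 96.8 CPM in 4-week barcodes with 1 and 0. In unused UMIs the 8-week ratio was 0.399 (0.342 to 0.464), while the 4-week ratio of 0.846 (0.446 to 1.47) rested on 13 UMIs and was not distinguishable from 1. With the rule applied after thinning the smaller log2 ratio of RXFP2 was −0.53 in place of −1.39. The 4-week difference of RXFP2 therefore rests on few UMIs. SOX6, a transcription factor of mesenchyme and cartilage, had unused-UMI ratios of 0.389 (0.333 to 0.454) at 8 weeks and 1.03 (0.567 to 1.72) at 4 weeks. Its levels were 29.9 CPM in members and 92.6 CPM in MSC-negative barcodes at 8 weeks and 39.5 and 96.5 CPM at 4 weeks.

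**Figure D3:**
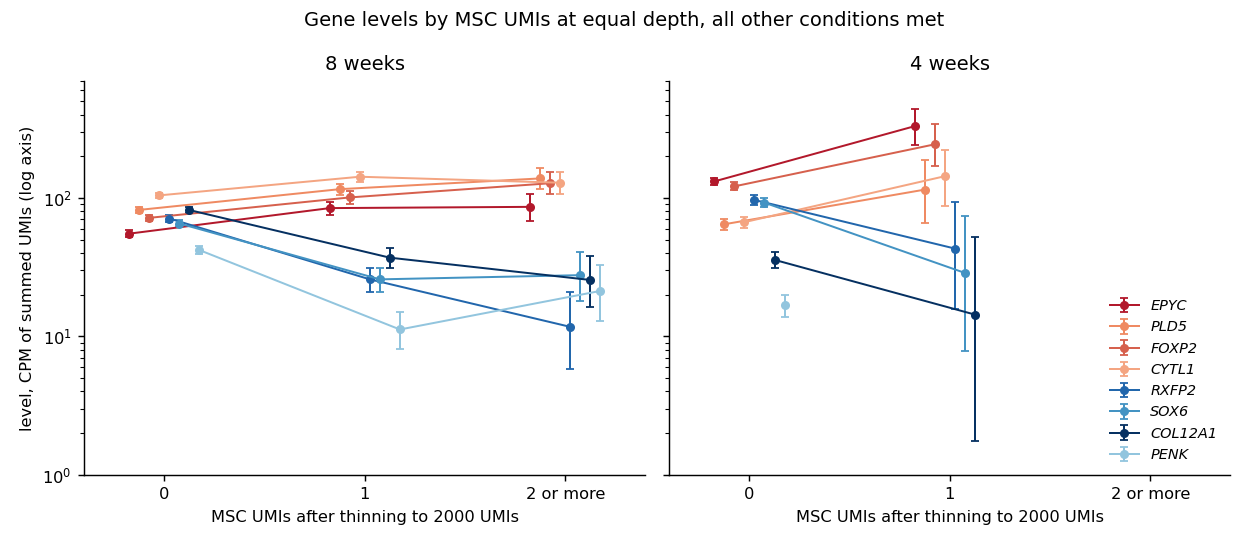
Levels in CPM of summed UMIs (log axis) of 8 genes in DCN barcodes that meet every other condition, by their MSC UMIs after thinning to 2000 UMIs, at 8 and 4 weeks, with 95% counting intervals. EPYC, PLD5, FOXP2 and CYTL1 were higher and RXFP2, SOX6, COL12A1 and PENK lower in barcodes with an MSC UMI. At 4 weeks no barcode held 2 or more, and PENK had no UMI in the 18 barcodes with 1, where COL12A1 and PENK were within counting error.

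Among matrix genes 2 of 23 collagens and tenascin-C were at least 2-fold lower in members in both libraries, against 0.739% of all genes. This share of all genes also stands behind the counts for the lists that follow, where 1 gene past 2-fold is no result about its list. COL12A1, a collagen that associates with fibrils, stood at 41.8 CPM in members and 111 CPM in MSC-negative barcodes at 8 weeks, 2.66-fold lower (2.42 to 2.94). At 4 weeks it stood at 12.1 and 37.7 CPM, 3.10-fold lower (1.55 to 7.27). In unused UMIs the COL12A1 ratio was 0.464 (0.405 to 0.531) at 8 weeks, while at 4 weeks 0.475 (0.0968 to 1.41) rested on 3 UMIs and was not distinguishable from 1. COL14A1, a related collagen, stood at 7.53 and 15.7 CPM at 8 weeks and at 7.59 and 19.8 CPM at 4 weeks. The other 21 of 23 measured collagens did not pass 2-fold in both libraries, and the list had medians of −0.17 and −0.16. TNC, the adhesion-modulating matrix protein tenascin-C, stood at 13.6 and 35.8 CPM at 8 weeks and at 16.7 and 47.1 CPM at 4 weeks, and was the 1 of 28 other matrix genes past 2-fold. All 3 levels were low, and COL14A1 lay under 8 CPM in members of both libraries.

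Transcription factors at least 2-fold lower in members in both libraries included GATA6, HAND2 and NR4A2. GATA6, which acts in gonadal and cardiac mesoderm, stood at 21.5 CPM in members and 45.9 CPM in MSC-negative barcodes at 8 weeks and at 28.8 and 79.5 CPM at 4 weeks, 2.13-fold (1.85 to 2.46) and 2.76-fold (1.75 to 4.62) lower. It was the 1 of 26 measured factors of interstitial progenitors past 2-fold, and TCF21 stood at 72.1 and 93.3 CPM and NR2F2 at 386 and 339 CPM at 8 weeks. HAND2, of the same helix-loop-helix class as MSC, stood at 6.68 and 19.9 CPM at 8 weeks and at 12.1 and 50.3 CPM at 4 weeks. It was the 1 of 11 such genes past 2-fold, and the dimer partner TCF12 stood at 481 and 517 CPM at 8 weeks. The orphan nuclear receptors NR4A2 and NR4A3, quickly induced genes, were the 2 of 21 nuclear receptors past 2-fold, NR4A2 at 45.9 and 115 CPM at 8 weeks and 41.0 and 116 CPM at 4 weeks. NR4A1 stood at 138 and 271 CPM at 8 weeks and at 138 and 236 CPM at 4 weeks. The immediate early and heat shock list had medians of −0.29 and 0.02 with 0 of 23 genes past 2-fold.

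In the WNT pathway 2 of 23 measured genes were at least 2-fold lower in both libraries, against 0.739% of all genes. RSPO3, which amplifies WNT signals, stood at 16.7 CPM in members and 47.8 CPM in MSC-negative barcodes at 8 weeks, 2.87-fold lower (2.46 to 3.35). At 4 weeks it stood at 1.52 CPM from a single UMI, against 16.8 CPM, a ratio of 0.0902 (0.00226 to 0.513). LGR5, a receptor of the R-spondins, stood at 5.13 and 10.8 CPM at 8 weeks. At 4 weeks it stood at 4.55 CPM from 3 UMIs, against 14.1 CPM. The 4-week part of the count for the WNT list thus rests on very few UMIs. The secreted WNT inhibitors SFRP1 and FRZB stood at 211 and 198 CPM in 8-week members, against 195 and 193 CPM in MSC-negative barcodes.

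A lipoprotein receptor and an adhesion gene were also among those past 2-fold. LRP1B, a receptor of the LDL receptor family, stood at 22.2 CPM in members and 86.6 CPM in MSC-negative barcodes at 8 weeks and at 28.8 and 109 CPM at 4 weeks, 3.90-fold (3.43 to 4.43) and 3.79-fold (2.41 to 6.33) lower. The adhesion gene ALCAM stood at 21.9 and 76.0 CPM at 8 weeks and at 37.9 and 97.9 CPM at 4 weeks. DHRS3, an enzyme that returns retinal to retinol, stood at 6.75 and 19.8 CPM at 8 weeks. At 4 weeks it stood at 3.04 CPM from 2 UMIs, against 11.3 CPM. The semaphorin receptor PLXNA2 stood at 8.09 and 16.4 CPM at 8 weeks and at 9.11 and 26.3 CPM at 4 weeks. DHRS3 and PLXNA2 were the 1 of 10 retinoic acid genes and the 1 of 29 axon guidance, growth factor and chemokine genes past 2-fold. Over all genes the share was 0.739%.

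Markers of other cell types moved with the 8-week differences from MSC-negative barcodes. At 8 weeks the epithelial markers summed to 159 CPM in members and 314 CPM in MSC-negative barcodes, the Sertoli markers to 253 and 437 CPM, the macrophage markers to 170 and 289 CPM and the steroidogenic markers to 547 and 744 CPM. At 4 weeks these sums were 275 and 264 CPM, 129 and 130 CPM, 36.4 and 31.8 CPM, and 175 and 278 CPM, so that of these sums the steroidogenic one again stood lower in members. Endothelial markers summed to 104 and 145 CPM at 8 weeks and to 140 and 212 CPM at 4 weeks, with FLT1, ERG and the podocyte and endothelial surface gene PODXL among the 72 genes. In 4-week members ERG and PODXL stood at 1.52 CPM, from 1 UMI each, and FLT1 at 10.6 CPM. The part of these cell types in the lower levels was not tested.

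**Figure D4:**
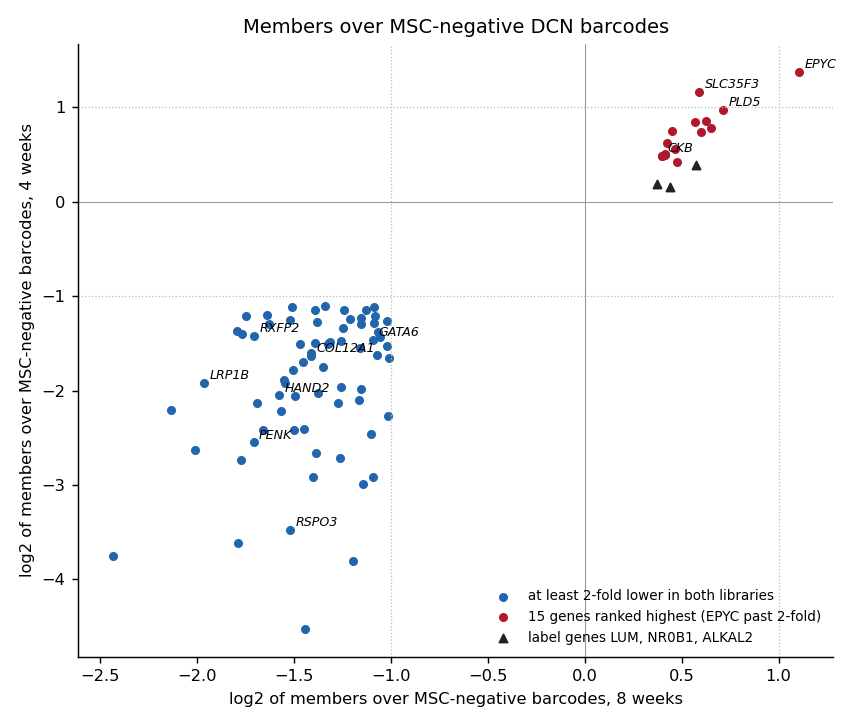
Log2 ratio of members over MSC-negative DCN barcodes at 8 weeks (x axis) and 4 weeks (y axis), for genes at least 2-fold lower in both libraries, the 15 genes ranked highest and the label genes, with dotted lines at 2-fold. EPYC is the gene outside the rule past 2-fold on the higher side (ratios of 2.15 and 2.59), and GRM7 and METTL24, which had no UMI in 4-week members, are not drawn.

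Between the stages, members differed in more genes than the far more numerous other DCN barcodes did. Of 10514 genes measured in members, 715 (6.8%) were at least 2-fold higher at 8 weeks than at 4 weeks and 675 (6.42%) at least 2-fold lower. Over the same genes the other DCN barcodes had 320 (3.04%) higher and 331 (3.15%) lower. The 70 members of the 4-week library held 658959 UMIs, so that 1 UMI there was worth 1.52 CPM, against 14218862 UMIs in 8-week members, and the part of this lower depth in the number of genes past 2-fold was not tested. Scaling by the median of ratios in place of total UMIs gave 993 higher and 484 lower, and the median gene above 50 CPM stood at a log2 ratio of −0.14 in members and −0.15 in other DCN barcodes.

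All 3 label genes outside the rule stood at least 2-fold higher at 8 weeks in members, against 6.8% of all genes measured. In other DCN barcodes 2 of the 3 did so. The label genes were chosen with earlier results of these data known, so this count is not independent evidence. The intervals of all 3 in members reached below 2. LUM had 171 CPM in 8-week and 83.5 CPM in 4-week members, a ratio of 2.05 (1.57 to 2.73), against a ratio of 1.80 in other DCN barcodes. NR0B1 had a ratio of 2.05 (1.77 to 2.38) in members and 2.06 in others, and ALKAL2 2.74 (1.75 to 4.57) and 3.11. The order of the stages was thus the same in members and in other DCN barcodes. MSC, which the rule fixes in members, had 83.5 CPM in the other DCN barcodes at 8 weeks and 6.23 CPM at 4 weeks, a ratio of 13.4 (11.1 to 16.3).

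EPYC was lower at 8 weeks. It stood at 80.0 CPM in 8-week and 307 CPM in 4-week members, 3.83-fold lower (3.28 to 4.45), and at 68.7 and 124 CPM in other DCN barcodes, 1.80-fold lower (1.72 to 1.90). Of the 5 measured small leucine-rich proteoglycans, 3 were higher and 2 lower at 8 weeks, with LUM past 2-fold on the higher side and EPYC on the lower one. Biglycan, BGN, stood at 175 CPM in 8-week and 229 CPM in 4-week members, and osteoglycin, OGN, at 165 and 141 CPM. FOXP2 was likewise lower at 8 weeks, with 93.5 and 199 CPM in members and 73.7 and 124 CPM in others. EPYC and FOXP2, both higher in members than in MSC-negative barcodes, were thus lower at the stage at which MSC was higher.

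Genes of steroidogenesis leaned higher at 8 weeks in members. Of 16 measured, 7 were at least 2-fold higher and 1 lower, against 6.8% and 6.42% of all genes, with a median log2 ratio of 0.62, against 0.49 in other DCN barcodes and −0.05 for all genes in members. CYP17A1, the enzyme on the path to androgens, stood at 179 CPM in 8-week and 41.0 CPM in 4-week members, a ratio of 4.37 (3 to 6.64). In barcodes below the DCN threshold it stood at 2154 and 648 CPM. CYP11A1, which cleaves cholesterol, stood at 101 and 48.6 CPM in members and at 391 and 239 CPM below the threshold. INSL3 had 77.6 CPM in 8-week members and no UMI in 4-week members, and 411 and 5.82 CPM below the threshold. CYP17A1 and CYP11A1 stood higher below the DCN threshold than in members at each stage, and the part of free RNA or mixed droplets in the member levels was not tested. With the rule applied after thinning CYP17A1 had a log2 ratio of −3.77 over 775 and 23 members, in place of 2.1, so its direction between the stages depends on which barcodes the rule takes.

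The macrophage chemokine CCL4 ranked highest, with 107 CPM in 8-week members and 1.52 CPM, from 1 UMI, in 4-week members. It stood at 974 and 33.0 CPM below the DCN threshold, and other macrophage genes moved with it, C1QA from the complement system standing at 38.7 and 3.04 CPM in members and at 288 and 26.2 CPM below the threshold. With the top 6% of doublet scores left out the log2 ratio of CCL4 was 2.90 in place of 5.55. The part of macrophage RNA in the level of CCL4 was not tested.

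CRABP2 and RYR3, also higher at 8 weeks, stood lower below the DCN threshold than in members. CRABP2, which carries retinoic acid to its nuclear receptors, stood at 375 CPM in 8-week and 115 CPM in 4-week members, a ratio of 3.25 (2.59 to 4.13), with 60.5 and 57.1 CPM below the threshold. RYR3, a calcium release channel, stood at 120 and 31.9 CPM in members, a ratio of 3.76 (2.45 to 6.09), with 16.3 and 23.3 CPM below the threshold. Both were also higher at 8 weeks in other DCN barcodes, by 2.06 and 2.39. FKBP7 stood at 124 and 44.0 CPM and the microfibril gene MFAP2 at 931 and 458 CPM. The elastic fibre list as a whole had a median of 0.42 over 18 genes, against 0.37 in others. Insulin-like growth factor genes had 0.53 over 10, against 0.03 in others, with the binding protein IGFBP7 at 405 and 190 CPM past 2-fold and IGF2 at 4323 and 4103 CPM.

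The genes lower at 8 weeks included several that stood high in the DCN barcodes at 4 weeks. CTNNA3, an adherens junction catenin, stood at 38.3 CPM in 8-week and 307 CPM in 4-week members, 8-fold lower (6.77 to 9.42), and at 40.6 and 199 CPM in other DCN barcodes. TRHDE, a peptidase that degrades thyrotropin-releasing hormone, stood at 31.5 and 197 CPM, 6.26-fold lower (5.11 to 7.63). EDNRB, an endothelin receptor, stood at 34.7 and 131 CPM, and the adhesion gene NCAM2 at 220 and 719 CPM. At 4 weeks CTNNA3, TRHDE, EDNRB and NCAM2 all stood at or below 41.0 CPM in barcodes under the DCN threshold, below their member levels. S100G, a calcium-binding protein, stood at 2.46 and 182 CPM in members but at 3.56 and 628 CPM below the threshold, and was 74.0-fold lower (50.4 to 111) in members and 68.8-fold lower (60.2 to 78.8) in other DCN barcodes.

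Contractile genes all stood lower at 8 weeks in members. All 14 measured had a ratio below 1, against 5601 of 10514 over all genes measured in members. Their median log2 was −0.60, against −0.21 in other DCN barcodes and −0.05 for all genes in members. It was the 1 list with a median 0.5 or more below that of all genes. With DCN at 10 or more, 0 lists lay that far below. Tropomyosin TPM1 stood at 563 CPM in 8-week and 894 CPM in 4-week members, and transgelin, TAGLN, at 180 and 272 CPM. Immediate early and heat shock genes had a median of −0.45, against 0.04 in others and −0.05 for all genes in members. On the lower side 3 of 23 were past 2-fold, against 6.42% of all genes. They were EGR2 at 35.1 and 95.6 CPM, EGR3 at 33.3 and 78.9 CPM and FOSL2 at 14.8 and 39.5 CPM. Tissue dissociation is known to induce such genes, and its part here was not tested. Of 32 axon guidance, growth factor and chemokine genes 2 were past 2-fold on the higher and 5 on the lower side, against 6.8% and 6.42% of all genes, so the higher count was at the background share.

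**Figure D5:**
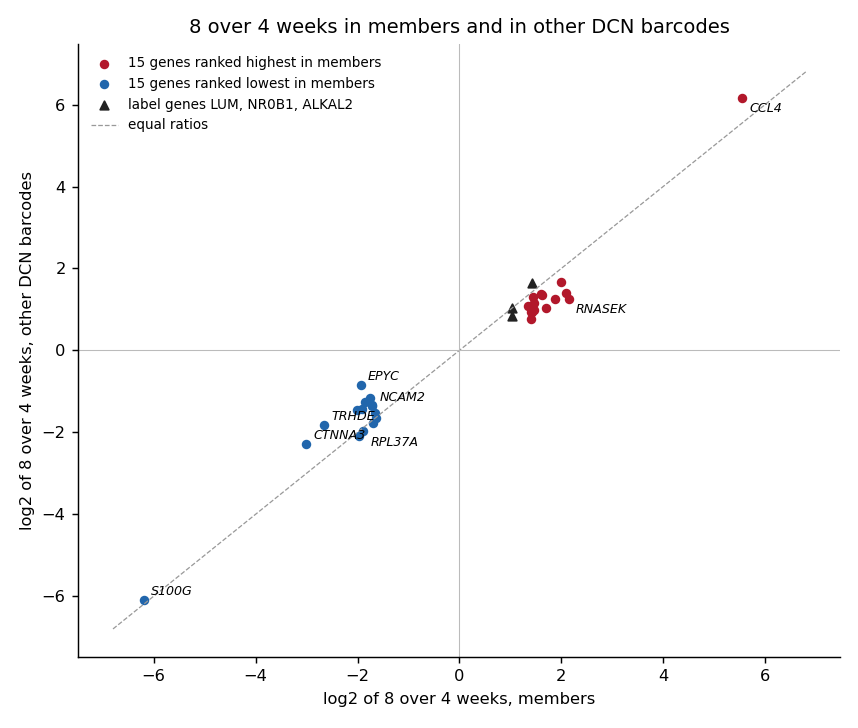
Log2 ratio of 8 over 4 weeks in members (x axis) and in other DCN barcodes (y axis), for the 15 genes ranked highest and the 15 ranked lowest in members and for the label genes, with a dashed line where the ratios are equal. The genes were ranked on the x axis. CCL4 and S100G lie at the ends in both groups, and EPYC lies lower in members (80.0 and 307 CPM) than in others (68.7 and 124 CPM).

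Among members, most genes varied little beyond counting, and a few varied far more. At 2000 UMIs per barcode the variance over the mean, which is 1 for pure counting, had a median of 1.05 at 8 weeks and 1.04 at 4 weeks over 3349 genes. The gene annotated as IDO1, whose usual product degrades tryptophan, was highest in both, at 8.80 and 5.73, with a member level of 5359 and 13095 CPM. It stood at 5891 and 15588 CPM below the DCN threshold and was thus not higher in members. The protocadherin PCDH9 followed at 3.40 and 2.77, with 3145 and 2902 CPM in members and 316 and 101 CPM below the threshold. CSMD1, a large membrane protein, had 3.25 and 3.99 and was found in 15.4% and 30% of the members at this depth. The fatty acid carrier FABP5 (4.31 and 2.26), the guidance receptor ROBO1 (2.11 and 2.76) and the immediate early gene FOS (3.56 and 2.16) were also among the 10 most variable genes. In all, 16 genes had a variance of at least 2 times the mean in both libraries. At 4000 UMIs per barcode IDO1, PCDH9, CSMD1 and FABP5 were again among the 10 most variable, and ROBO1 and FOS were not.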

How the data were processed

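Single-cell RNA libraries of fetal donkey gonadal tissue, 1 per stage, were analysed from the deposited gene-by-barcode matrices. Their values are raw UMI counts, whole numbers that the authors had not normalized. The headers name Cell Ranger 7.1.0 as the software and the submitters' processing notes name version 2.1.1. The kit named in the labels, DNBelab C, and the Cell Ranger form of the barcodes differ, and the chemistry was not settled. The genome build and annotation were not stated in the labels or headers. Of 38517 features, 16536 carried a symbol and 799 of 21981 locus identifiers were named from a RefSeq gene table, without coordinates. No sequences were used.

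Counts were summed over the barcodes of a group and given as CPM (per 1000000 UMIs) with exact Poisson intervals. Ratios carry exact conditional binomial intervals, shares Clopper-Pearson intervals, and a count of 0 the limit of 3 counts. Log2 ratios had 0.5 UMI added to each sum. Each stage was 1 library and the members were chosen on these counts, so no p-value is given. "At least 2-fold" is a rule of size, for genes at 10 CPM or more in the higher group in each library compared. The genes that define the members were left out of these counts. Thinning drew 2000 UMIs without replacement with a fixed seed. Doublets were not removed, and leaving out the top of a Scrublet-type score was an alternative.

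Members, gene lists and tests were chosen with earlier results of these data known. Named genes are the 15 highest and 15 lowest of each comparison, ranked by the smaller log2 ratio of the libraries (at least 50 CPM in the higher group in both) or by stage ratio (at least 100 CPM), the label and rule genes, up to 6 genes per list with the highest level or past 2-fold, and the 10 most variable genes. A few of these genes are not reported here. FOXL2, the genes past 2-fold outside these ranks, the comparison with MSC-negative barcodes, the groups by MSC UMIs at equal depth, the divided UMIs, the thinned TOP2A and MKI67 shares, the stroma sum without DCN and the endothelial barcodes were chosen after values were seen. Python 3.11.15, numpy 2.4.6, scipy 1.17.1, pandas 2.3.3, scikit-learn 1.9.0 and matplotlib 3.10.9 were used, and the code was tested on simulated counts.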

Additional observations from a re-analysis of the deposited data

Results flagged for a closer look

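For 10 named genes the ratio of members over other DCN barcodes lay above 1 in one library and below 1 in the other, with counting intervals that excluded 1, and the difference between the libraries was not tested. The retinoic acid carrier CRABP2 had ratios of 1.11 at 8 weeks and 0.706 at 4 weeks, and FDX1, the electron donor of steroid enzymes, 1.06 and 0.692. The others were below 1 at 8 weeks and above it at 4 weeks. TRHDE had ratios of 0.865 and 1.52, ANKS1A 0.896 and 1.34 and the adhesion gene NCAM2 0.872 and 1.11. The helix-loop-helix inhibitor ID3 had 0.854 and 1.29, the chemokine CXCL12 0.961 and 1.14 and the immediate early gene FOS 0.869 and 1.14. The contractile genes TPM1 and TAGLN had 0.968 and 1.26, and 0.89 and 1.52.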

How the results depend on the processing

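There were 12 alternatives, of which thinning to 4000 UMIs applied only to the number of variable genes. Of 963 values of named genes under the others, 850 moved by less than the counting error of the 4-week member level. A further 111 moved by more and 2 changed sign: CYP17A1 between stages, at a log2 ratio of −3.77 with the rule applied after thinning, and PRC1, at 0.13 when set against MSC-negative barcodes. A ratio whose libraries came to point in opposite directions was not counted as a change of sign. PLD5 with the rule applied after thinning was such a case. At 2 or more MSC UMIs the rule kept 715 and 7 members (9.86% and 0.413% of DCN barcodes, 4.90% and 0.0783% of all), 3 genes higher than MSC-negative, 1488 higher and 3263 lower between stages, and 4 lists above and 2 below all genes. Applied after thinning the rule kept 775 and 23 (9.92%, 1.17%, 5.31% and 0.257%), with 117 genes lower than other DCN barcodes, 0 higher than MSC-negative, 1323 lower between stages, and 1 and 3 lists lower. At DCN of 10 or more the shares were 21.2%, 5.42% and 8.92%, with 44 genes lower than MSC-negative and 0 lists below. At 5000 UMIs the 8-week shares were 21.6% and 7.88%, and at 1000 UMIs 16.9% with 2 genes higher. Set against MSC-negative barcodes there were 1 higher, 72 lower and 0 lists. Leaving out doublets gave 4 lists above, leaving out very deep barcodes 21.3% and 2 genes, and means over barcodes 3 genes and 4 lists. With no minimum level the counts were 1109 and 392, 608 and 266, and 1701 and 8085, with 7 and 0 lists. At 4000 UMIs 55 genes varied. The cause of these moves was not tested, apart from fewer members or more genes by construction. Depth limits the 4-week values, where 3 UMIs stand for 4.55 CPM. No paired analysis was possible because each stage is 1 library.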
